A study of Homo sapiens with 5 samples.

Results

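The MIR221 and MIR222 region is a 200 kb window of chromosome X, from 45550000 to 45750000 in hg19, around the genes of the microRNAs miR-221 and miR-222. Its members are the ChIP-seq summits listed there, 112 of the 209263 in the 5 lists of the study. The window was selected on the measured density of its H3K27ac summits, so that density is a description and carries no test. A summit is the 1 bp position at which an immunoprecipitated fragment pile peaks within a called peak.

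All samples came from the established line HCT116, grown from a human colorectal carcinoma. The cells had received a control siRNA or an siRNA against the long noncoding RNA ENO1-IT1 for 48 h, and chromatin was immunoprecipitated with an antibody to histone H3 acetylated at lysine 27 (H3K27ac) or to the acetyltransferase KAT7, also called HBO1. The remaining library was input DNA without antibody, for which the siRNA is not labelled. Every one of the 5 groups held 1 library, so differences between siRNAs describe these libraries and have no replicate check. The groups rest on the sample titles, and the lists hold no transcript levels with which the knockdown, the levels of the microRNAs or the identity of the cells could be checked.

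MicroRNAs are short RNAs that guide a silencing complex to messenger RNAs, chiefly by pairing of a seed near the 5′ end of the microRNA. MIR221 and MIR222 lie side by side and are processed from a common long noncoding transcript, MIR222HG. Their products are known to repress the cell cycle inhibitors CDKN1B and CDKN1C and the receptor KIT, and are known to be abundant in many carcinomas. H3K27ac marks active promoters and enhancers. KAT7 works in complexes with scaffold proteins and is known for acetylating other lysines of histones H3 and H4 and for its role at replication origins.

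The sequences of the microRNAs are shown because the shared seed is what joins both genes into a family. They are from RefSeq for GRCh38.p14, minus strand of chromosome X, and capitals mark the seed, bases 2 to 8.
hsa-miR-221-3p: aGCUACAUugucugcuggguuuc
hsa-miR-222-3p: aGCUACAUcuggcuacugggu
hsa-miR-222-5p: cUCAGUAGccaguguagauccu

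The first 8 bases of miR-221-3p and miR-222-3p were identical, and so were 11 of the 21 positions they have in common from the 5′ end. No other of the 2545 mature microRNAs in that table had their seed. The seed of miR-222-5p was found in 1 mature microRNA, itself. In the hairpins of 110 bases that are cut from the transcript, capitals mark the mature microRNAs listed above.
MIR221 hairpin: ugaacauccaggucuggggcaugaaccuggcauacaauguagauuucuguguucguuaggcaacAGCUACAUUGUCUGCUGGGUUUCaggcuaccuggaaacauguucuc
MIR222 hairpin: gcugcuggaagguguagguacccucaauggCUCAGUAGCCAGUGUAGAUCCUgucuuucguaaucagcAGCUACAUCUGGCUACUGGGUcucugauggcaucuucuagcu

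In the gene order of GRCh38.p14, MIR221 and MIR222 were the only genes inside MIR222HG. The pseudogenes MFFP3 and KRT8P14 and the noncoding gene LINC01204 came before it. The noncoding gene LINC02595, a snoRNA gene and the pseudogene SRSF6P1 came after it. No hg19 annotation was used, so summits were not assigned to exons or promoters. MIR221 and MIR222 were placed near position 45606000 of hg19 from general knowledge of the map, to about 1 kb.

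H3K27ac was listed very densely in the region and KAT7 was not. The control H3K27ac list had 46 summits there and the knockdown list 55, which was 6.22% of the 740 and 6.12% of the 898 summits on chromosome X. Windows of 200 kb taken every 50 kb over chromosomes 1 to 22 and X held a mean of 2.0 and 2.2 summits. At least 46 control summits were found in 13 of 58796 windows, 2 of them overlapping the region. At least 55 knockdown summits were found in 2 of 58852 windows, both overlapping the region. KAT7 had 8 control summits in the region against a mean of 8.24 per window, and 56.9% of windows held at least as many. It had 3 knockdown summits against a mean of 1.65, and 23.3% of windows held at least as many. The input list had no summit in the region.

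The ratio of knockdown to control summit numbers in the region was 1.2 for H3K27ac, with an exact 95% interval of 0.793 to 1.81 that covers counting error only. It was 1.21 on all of chromosome X and 1.08 over the whole lists. For KAT7 the ratio was 0.375 (0.0641 to 1.56) in the region, 0.215 on chromosome X and 0.201 over the whole lists. Neither interval in the region excluded 1 or the ratio of its chromosome. The KAT7 order turned with a score minimum, with 1 control and 3 knockdown summits at a score of at least 5 and 1 and 2 at a score of at least 10. A common minimum does not cut both KAT7 lists alike. A score of 4.28 stood within the top 13.7% of the control list, and one of 5.83 only within the top 61.1% of the knockdown list. The turned order is therefore not a comparison of the conditions.

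**Figure D1:**
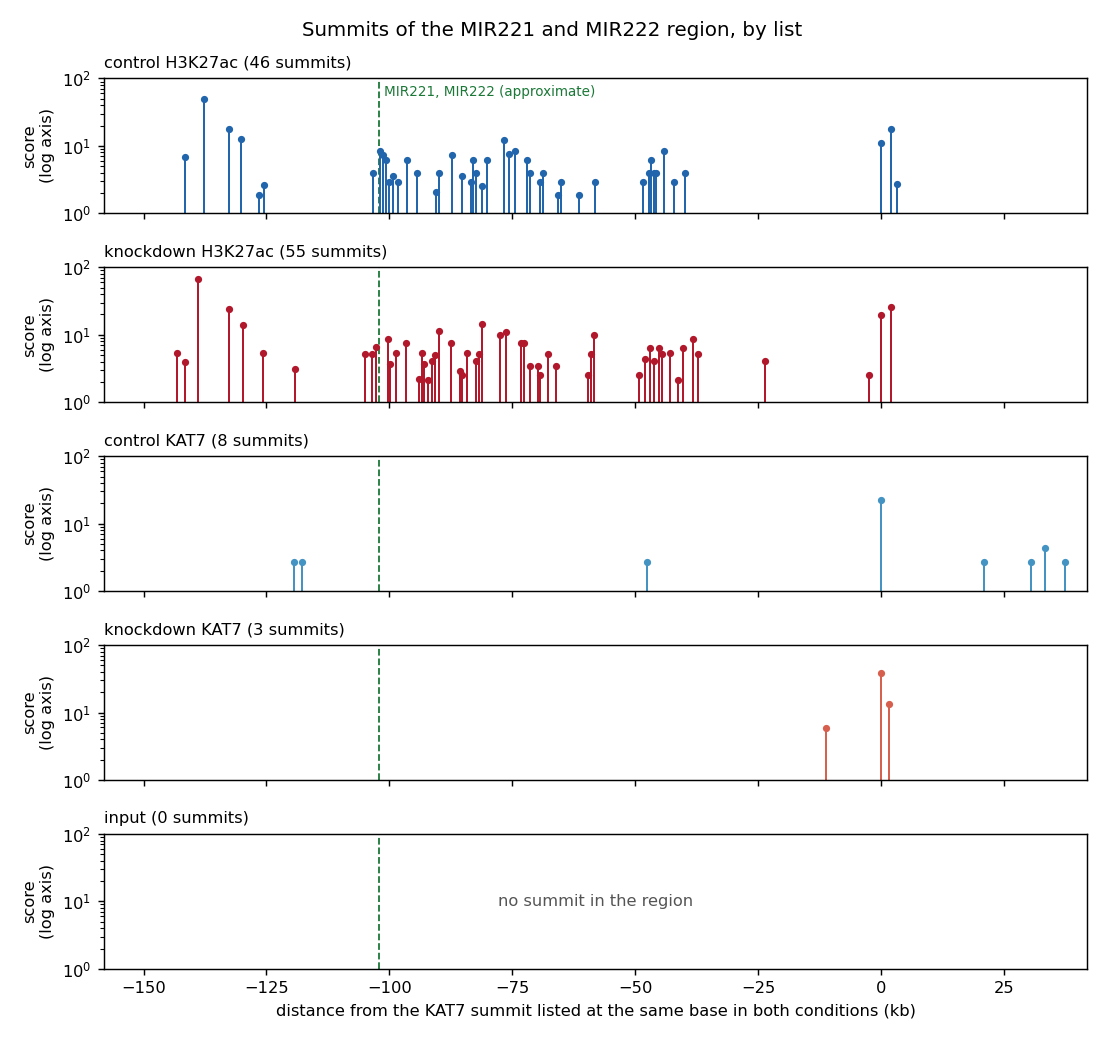
Score of each summit of the region (log axis) against its distance in kb from the KAT7 summit that both conditions list at the same base, in 1 panel per list. The dashed line is the approximate place of MIR221 and MIR222. H3K27ac fills the middle of the region in both conditions with low scores, whereas the KAT7 summits with scores of 22.78 and 38.28 stand at 0 kb and the input panel is empty.

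The control H3K27ac summits fell into 4 parts of the region. Most knockdown summits lay in or near the same parts, some of which were split. Summits were linked into stretches wherever neighbours were at most 5 kb apart. A left part of 6 control summits ran from 45566553 to 45582558. It was listed after knockdown as 2 stretches of 3 summits, from 45564804 to 45569142 and from 45575551 to 45582376. The long middle stretch held 29 control summits over 45.0 kb, from 45604730 to 45649777. After knockdown it held 30 over 38.8 kb, from 45603129 to 45641945, with a separate group of 3 from 45648418 to 45649677. Next came 8 control summits from 45659733 to 45668191 and 11 knockdown summits from 45658901 to 45670742. A right part held 3 summits in each list, from 45708090 to 45711182 in the control and from 45705487 to 45710009 after knockdown. Single knockdown summits at 45588811 (score 3.10) and 45684473 (score 4.13) lay between the parts, with the nearest control summits 6253 and 16282 bp away.

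The middle stretch was long, and most of its scores were below the medians of the lists. The deposited score of a summit is a -log10 p or q value, which grows with sequencing depth and is read here only within its own list. In the control stretch the scores ran from 1.88 to 12.25 with a median of 3.96, and 23 of the 29 summits lay below the median of the whole control list, 7.14. After knockdown they ran from 2.16 to 14.21 with a median of 5.21, and 25 of 30 lay below the list's median of 8.02. The median spacing of neighbouring summits was 1222 bp in the control stretch and 1176 bp after knockdown. Scores in the region often repeated exactly. A score of 3.96 was shared by 10 control summits and one of 5.21 by 7 knockdown summits, and those scores were given to 855 and 834 summits of the whole lists.

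Among all linked stretches this one ranked high by number of summits, and its highest score was low. By number it ranked 2 of 17379 in the control and 2 of 20469 after knockdown, and by span 1 and 4. Outside the region, 52 control and 45 knockdown stretches had at least 10 summits. The highest score within a stretch had a median of 29.67 over those control stretches and 41.35 over those of the knockdown. Only 4 of the 52 and 2 of the 45 had a highest score at or below that of the stretch of the region. By median score it stood less far apart after knockdown, where 12 of the 45 had a median at or below 5.21, against 5 of the 52 at or below 3.96 in the control. Rank by number is what the region was chosen for and is given as a description.

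**Figure D2:**
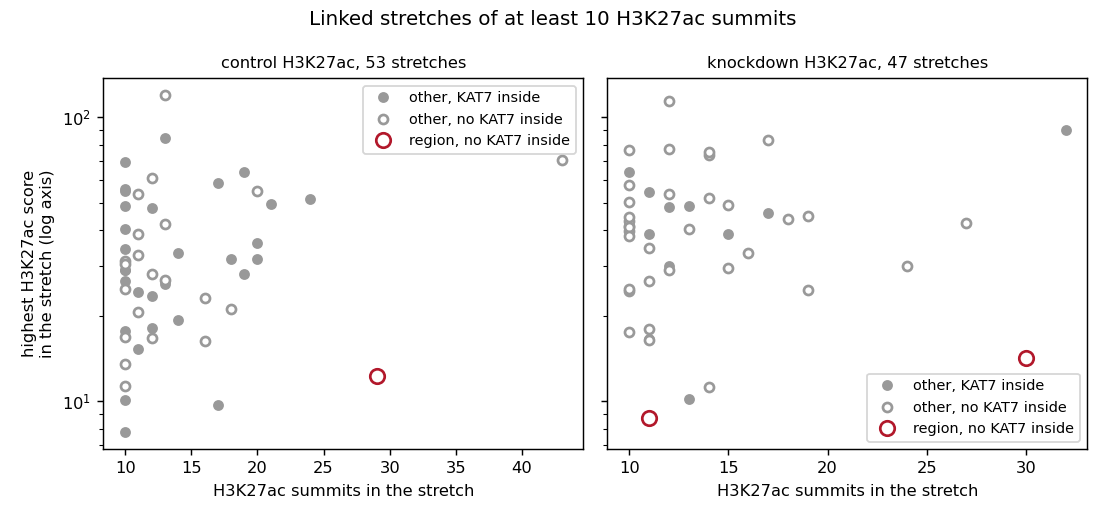
Highest H3K27ac score (log axis) against the number of H3K27ac summits, for linked stretches of at least 10 summits in each H3K27ac list. Red rings are stretches of the MIR221 and MIR222 region, and filled points have a KAT7 summit of the same condition inside. The region's stretches of 29 control and 30 knockdown summits lie far to the right at highest scores of 12.25 and 14.21.

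Beside MIR221 and MIR222, H3K27ac was listed in both conditions, with summits at different bases. Within 2 kb of 45606000 there were 5 control and 3 knockdown H3K27ac summits, within 5 kb 7 and 6, and within 25 kb 20 and 24. The summits nearest to that position were at 45606125 in the control, with a score of 8.49, and at 45605368 after knockdown, with a score of 6.49. Control summits at 45606125, 45606738 (score 7.31) and 45607339 (score 6.15) were 757, 1142 and 541 bp from the nearest knockdown summit. Those at 45604730 (score 3.96) and 45607917 (score 2.93), also within 2 kb, were 213 and 37 bp from one. In the whole middle stretch, 17 of the 29 control summits (58.6%) had one within 500 bp. That share was 71.9% over the whole control list and 55.8% in the other control stretches of at least 10 summits. Summits at different bases were usual, as only 13.9% of the whole control list had a knockdown summit within 25 bp. No knockdown summit was listed between 45605368 and 45607880, and elsewhere in the knockdown stretch a wider gap of 3629 bp was found. Since the genes are placed only to about 1 kb, it cannot be said which of these summits, if any, lies on a hairpin. The nearest KAT7 summits were at 45590243 in the control (score 2.68), 15.8 kb away, and at 45696927 after knockdown (score 5.83), 90.9 kb away.

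Most H3K27ac summits of the region had a counterpart in the other condition within 500 bp. Of the 46 control summits, 30 (65.2%, exact Clopper-Pearson 95% interval 49.8 to 78.6%) had a knockdown summit, against 71.9% over the whole control list. A control counterpart was listed for 31 of the 55 knockdown summits (56.4%, 42.3 to 69.7%), against 64.3% over the whole knockdown list. Both whole-list shares lay within the intervals, so no difference from the list was detectable at 500 bp with this number of summits. Every control summit had a knockdown summit within 2000 bp, and a control summit was as near for 51 of 55 knockdown ones (92.7%, 82.4 to 98.0%). The whole-list shares at that distance were 93.5% and 81.1%, and those of the other stretches of at least 10 summits 90.9% and 89.6%. The knockdown interval of the region thus lay above its whole-list share and included that of the other stretches. Dense summits by themselves place more positions within 2000 bp of one, so this difference from the list carries no test.

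At shorter distances the region stood below the whole lists. Within 100 bp the share was 19.6% (9.36 to 33.9%) of control summits, against 35.8% of the whole control list, and 16.4% (7.77 to 28.8%) of knockdown summits, against 33.0% of the whole knockdown list. Both intervals excluded the whole-list share. They treat neighbouring summits as independent, which they are not. In the other stretches of at least 10 summits the shares within 100 bp were 20.2% (17.3 to 23.4%) and 22.5% (19.3 to 26.1%), within the intervals of the region. No difference from those stretches was detectable.

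Within the long stretch, summits of one condition were about as often near the other as any base was. Of the 29 control summits, 17 (58.6%, 38.9 to 76.5%) lay within 500 bp of a knockdown summit, and so did 55.9% of all bases of the stretch. Of the 30 knockdown summits, 19 (63.3%, 43.9 to 80.1%) lay within 500 bp of a control summit, as did 56.0% of the bases. At 100 bp the shares were 17.2% of control summits (5.85 to 35.8%) and 13.8% of bases, and 13.3% of knockdown summits (3.76 to 30.7%) and 12.9% of bases. The stretch as a whole was thus listed in both conditions, and an agreement of single summits beyond their spacing was not detectable.

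**Figure D3:**
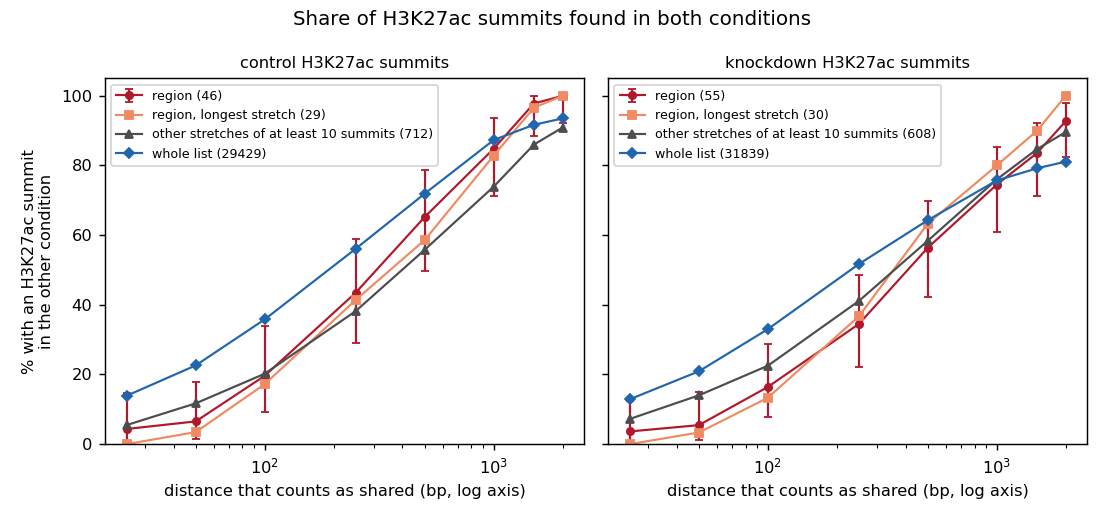
Share of H3K27ac summits with an H3K27ac summit of the other condition, in percent, against the distance allowed in bp (log axis). Lines stand for the region, its longest stretch, other stretches of at least 10 summits and the whole list, with numbers of summits in the key, and bars are exact 95% intervals for the region, counting error only. At 100 bp the region (19.6% and 16.4%) lies below the whole lists (35.8% and 33.0%), and at 500 bp the intervals include them. At 2000 bp the knockdown interval (82.4 to 98.0%) lies above the whole knockdown list (81.1%).

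The strongest H3K27ac summits of the region were in its flanks. The highest in the control was at 45570472 with a score of 50.19, rank 295 of 29429, and the highest after knockdown was at 45569142 with a score of 66.00, rank 277 of 31839. They were 1330 bp apart and so counted as listed in 1 condition only, although both lists had a strong summit in this stretch. The next control summits were at 45575390 (score 17.70), 45710092 (score 17.66), 45577863 (score 12.64) and, in the middle stretch, 45631281 (score 12.25). The next knockdown summits were at 45710009 (score 25.36), 45575551 (score 23.91), 45708077 (score 19.43) and, in the middle stretch, 45626842 (score 14.21).

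Of the 4 control summits named here in the flanks, 3 had a knockdown summit within 500 bp, which with so few summits cannot be told from the 71.9% of the whole list. The control summits at 45575390, 45710092 and 45577863 had knockdown summits 161, 83 and 459 bp away. The middle summit at 45631281 had one at 45631750, 469 bp away with a score of 11.13. The knockdown summit at 45626842 lay 118 bp from a control summit with a score of 2.53.

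After the pair 1330 bp apart, the highest scores listed in 1 condition only were modest. They were 8.49 in the control, at 45606125 and 45633611, and 9.93 at 45630471 and 8.71 at 45669761 after knockdown. In all, 16 of the 46 control and 24 of the 55 knockdown summits had no counterpart within 500 bp. A counterpart was listed for 65.2% and 56.4% of the region's summits, against 71.9% and 64.3% over the whole lists. Those list shares lay within the region's intervals. The summits without a counterpart had median scores of 5.06 and 5.21, against 3.96 and 5.36 for the summits with one.

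**Figure D4:**
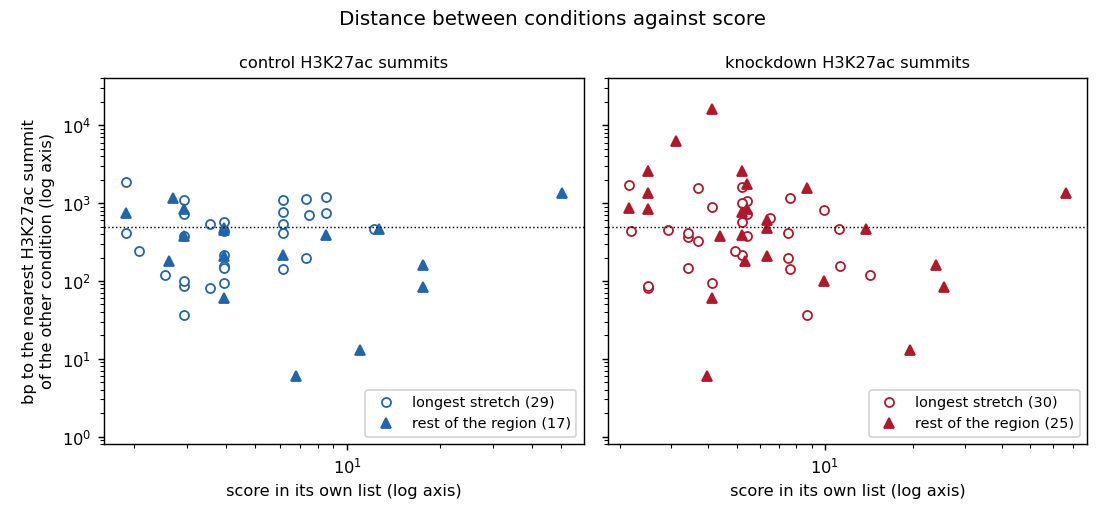
Distance in bp from each H3K27ac summit of the region to the nearest one of the other condition (log axis) against its score in its own list (log axis). Rings are summits of the longest stretch, triangles the rest of the region, and the dotted line is 500 bp. The rings lie between 37 and 1849 bp, and the highest-scored triangle in each panel is 1330 bp from its counterpart.

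KAT7 was listed beside few of the H3K27ac summits, and those were outside the middle stretch. Control KAT7 was listed within 500 bp of 2 of the 46 control H3K27ac summits (4.35%, 0.531 to 14.8%), against 14.8% over the whole control H3K27ac list. Of the 55 knockdown H3K27ac summits, 2 (3.64%, 0.443 to 12.5%) had a knockdown KAT7 summit, against 14.3% over the whole knockdown list. The knockdown interval excluded the share of the whole list, while the upper bound in the control equalled it to 3 digits. The window was selected for dense H3K27ac summits, which by itself puts many of them to each KAT7 summit and lowers these shares. The intervals also treat neighbouring summits as independent, which they are not, so the shares carry no test against the whole lists. In the other stretches of at least 10 summits KAT7 stood beside 2.95% of control and 4.61% of knockdown summits, both within the region's intervals.

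No KAT7 summit lay inside the middle stretch in either condition. The same held for 21 of the 52 other control stretches and 34 of the 45 other knockdown stretches of at least 10 summits, so the same was seen elsewhere. The control stretch from 45659733 to 45668191 held 1 KAT7 summit, at 45660532 with a score of 2.68, 407 bp from an H3K27ac summit at 45660939 (score 3.96). The nearest knockdown KAT7 summit was 36395 bp away.

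From the side of KAT7, 2 of the 8 control summits (25%, 3.19 to 65.1%) had a control H3K27ac summit within 500 bp, against 3.67% over the whole control KAT7 list. After knockdown it was 2 of 3 (66.7%, 9.43 to 99.2%), against 19.0%. Both whole-list shares lay within the intervals. The window was selected for its dense H3K27ac summits, which by itself places more of its positions near one, so these shares carry no test. A score of 2.68, which is the median of the whole control KAT7 list and was held by 52298 of its summits, was the score of 6 of the 8. A further summit at 45741304 had 4.28.

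A single position was listed for both marks in both conditions. KAT7 had a summit at base 45708083 in the control, with a score of 22.78 and rank 477 of 122439, and at the same base after knockdown, with a score of 38.28 and rank 1804 of 24611. H3K27ac summits lay at 45708090 in the control (score 10.95) and at 45708077 after knockdown (score 19.43), so that all 4 fell within 13 bp. The site is 102 kb from the place of MIR221 and MIR222. It was the only one of the 8 control KAT7 summits (12.5%, 0.316 to 52.7%) with a knockdown KAT7 summit within 500 bp, against 6.62% over the whole control list. From the other side it was 1 of 3 (33.3%, 0.840 to 90.6%), against 32.2%. Neither share differed detectably from its list. Over the genome, 2646 control KAT7 summits (2.16%) had a summit of each of the other immunoprecipitated lists within 500 bp, and this one ranked 200 among them by control KAT7 score.

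Beside it, the knockdown KAT7 list had a further summit at 45709668, with a score of 13.58. It lay 341 bp from the knockdown H3K27ac summit at 45710009 and 1585 bp from the nearest control KAT7 summit. H3K27ac was listed there in both conditions, at 45710092 in the control and 83 bp away after knockdown. The remaining knockdown KAT7 summit, at 45696927 with a score of 5.83, was 8560 bp from the nearest knockdown H3K27ac summit.

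The bounds of the window lay in sparse chromatin for H3K27ac. On the left, the first summits inside were at 45566553 in the control (score 6.80) and 45564804 after knockdown (score 5.42), and the last outside were at 45529325 (score 9.68) and 45529329 (score 8.71). On the right, the last inside were at 45711182 (score 2.69) and 45710009 (score 25.36). The next outside were 288355 and 290575 bp beyond the bound, at 46038355 (score 5.03) and 46040575 (score 19.43). No H3K27ac summit thus lay close to either bound. For KAT7 the control summit at 45745534 (score 2.68) was 4466 bp inside the right bound.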

How the data were processed

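Per the submitters' processing notes, Bowtie aligned the reads to hg19 and MACS2 made the peak calls. No version, setting or background sample is given in the sources used here. The authors deposited 1 list of 1 bp summits per sample, with a -log10 p or q score per summit, and the peak names carry a tag for duplicate removal. The lists hold no read counts, so depth is unknown. The peak name codes differ between the siRNAs but do not show which is the control. Groups rest on the titles, and exchanged titles would turn every direction.

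Nearest distances, linked stretches and windows were computed with SciPy 1.17.1, pandas 2.3.3 and numpy 2.4.6 in Python 3.11.15, plotted with matplotlib 3.10.9, and the code was tested on simulated lists. Summits were named by rule: the 5 highest of the region per H3K27ac list, all KAT7 summits beside H3K27ac, the 3 highest in 1 condition only, the ends of stretches and those nearest MIR221 and MIR222. With 1 library per group no test was run. Intervals are exact Clopper-Pearson on numbers of summits and cover counting error only, not the spread between libraries. The region and all rules were chosen with earlier results of these data known. The share of bases near a summit was added after the summits had been seen.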

Additional observations from a re-analysis of the deposited data

How the results depend on the processing

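Of 58 alternatives, 33 stayed within the interval of the value given in the report, or within 1.5 times for a count, and 25 did not. The share of control H3K27ac summits found after knockdown was 19.6%, 43.5%, 84.8% and 100% at 100, 250, 1000 and 2000 bp, and that of knockdown summits found in the control 16.4%, 34.5%, 74.5% and 92.7%. A wider distance can only raise these shares. With a score of at least 5 in both lists the control share was 52.6% of 19 summits and the knockdown share 30.3% of 33. With at least 10 they were 83.3% of 6 and 62.5% of 8. At a score of at least 5, and at 10, the share of control KAT7 summits found after knockdown was 100% of 1. With a score of at least 10, KAT7 lay beside 16.7% of control and 25% of knockdown H3K27ac summits, which were 6 and 8 in number. In the longest stretch alone it lay beside 0% in both conditions, and the KAT7 shares could not be given there because the stretch held no KAT7 summit.

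Numbers of summits depended on the score minimum, as fewer are counted. At a score of at least 5 there were 19 control and 33 knockdown H3K27ac summits, and at 10 there were 6 and 8. For KAT7 there were 1 control and 3 knockdown summits at 5 and 1 and 2 at 10, which turned the order of 8 and 3 found with all summits. A common minimum does not cut both lists alike, so that turn does not compare the conditions. The longest linked stretch held 9 control and 21 knockdown summits at gaps of at most 3 kb, 37 and 44 at 10 kb, and 7 and 17 with scores of at least 5, so its near-equal size of 29 and 30 rested on the gap and on the weak summits. No paired analysis was possible because each group held 1 library. Unknown depth limits every comparison of scores between lists.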
